A study of Chilo suppressalis with 6 samples.

Results

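The 60 genes described here had the clearest fall in *Chilo suppressalis* larvae fed (E)-β-farnesene (Eβf), among 38966 genes of the deposited expression table. Larvae of this moth, the rice stem borer, ate artificial food that held either 0.8 g/kg Eβf or solvent alone (the control) until they were collected in the 3rd instar. They came from 1 laboratory population labelled as sensitive. Poly(A) RNA of 3 samples per group was sequenced. The study describes the 3 samples of each group as biological replicates. The labels and methods name 6 larvae for RNA extraction, and whether each library holds 6 larvae is not settled by these sources. Spreads given here are between libraries. The values are FPKM, fragments scaled to gene length and to the fragments of the library, as the authors calculated them. The age of the larvae within the instar is not given for the libraries, so a difference in age and the diet cannot be told apart. The table names the libraries TFN and TYC, which were read as Eβf and control, and each direction below rests on that reading.

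Eβf is a sesquiterpene that many plants release when insects feed on them, and it is best known as the alarm pheromone of aphids. Its carbon chain is the farnesyl chain from which insects also make juvenile hormone. Juvenile hormone keeps a larva larval through its moults, and ecdysteroids start each moult. The RNA of a whole caterpillar changes strongly within an instar, when cuticle, gut and fat body genes are switched on and off around the moult.

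The members were chosen by their measured values. Of genes with identical values the first was kept, and the 100 most abundant genes and genes listed at 0 in all 3 Eβf libraries were left out. A gene needed an FPKM of 5 or more in every control library, which left 3779 genes. The score was log2(FPKM + 1) of the lowest control library minus that of the highest Eβf library. A score above 0 means that the groups did not overlap, which held for 417 of the 3779 genes (11.0%). The 60 highest scores ran from 1.75 to 5.26, with a median of 2.40. Because both groups set the score, the fall itself is a description and was not tested. The other way round, for a rise, 979 of 4115 genes had a score above 0, and the 60 highest of those scores ran from 2.46 to 6.01.

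The 60 genes comprised 39 annotated gene models (IDs starting with evm) and 21 loci assembled by StringTie (IDs starting with MSTRG). The gene models made up 65% of the list and 66.9% of the 3779 genes. None of the table's IDs (0 of 38966) was found in the 11366 genes of the reference table used here, so no member is described by its function. For the same reason the larval tissues could not be checked against marker genes. In RNA of whole larvae, fewer cells of a type and less RNA per cell cannot be told apart. None of the 12 genes with qPCR primers in the study was a member (0 of 12). Only 2 of the 12 were among the 3779 genes, so nothing is read from this.

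Control replicate 3 stood apart from the other controls over all genes tested. Over the 11932 genes that reached an FPKM of 1 in 3 libraries or more, it correlated at 0.810 and 0.771 with control replicates 1 and 2. Those 2 correlated at 0.918 with each other (log2 scale, across genes, which are not independent). With Eβf replicates 1 to 3, control replicate 1 correlated at 0.855, 0.811 and 0.791 and control replicate 2 at 0.821, 0.764 and 0.790. In the sequencing summary of the study, control replicate 3 had the highest GC content, the lowest base quality and the lowest alignment rate. Eβf replicate 3 was next lowest in both quality and alignment and had the lowest GC content. The part of library quality in the values below was not tested. Summed FPKM was 1630380 to 1772690 per library, which is no measure of depth. Relative depth, read from the spacing of the smallest values, was 0.965 to 1.52 times that of control replicate 1. The table holds no counts, so no counting error is given.

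The gene with the highest score, evm_001769, reached 215.1, 189.2 and 433.9 FPKM in the controls, in the order of replicates 1 to 3 used throughout, and 2.51, 3.79 and 3.96 after Eβf. Its lowest control lay 47.7 times above its highest Eβf library. The second, evm_000764, was at 93.0, 94.6 and 7728 in the controls and at 2.15, 0.642 and 0.262 after Eβf. Here controls 1 and 2 were nearly equal and control 3 was 82.4 times their mean. The third, evm_006669, was at 862.1, 771.4 and 11772 in the controls and at 37.9, 32.9 and 10.4 after Eβf. It had the highest mean FPKM of the list, 4468 in the control.

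MSTRG.20530 was at 215.5, 215.7 and 478.8 in the controls and at 11.7, 4.79 and 8.02 after Eβf. evm_000762 was at 16.6, 24.3 and 3026 in the controls and at 0.119, 0.209 and 0.0401 after Eβf. In MSTRG.20530 control 3 lay moderately above the other controls, and in evm_000762 far above them. In evm_009745 the controls were closer together, with 71.7, 45.1 and 76.3 in the controls and 2.17, 0.0167 and 0.465 after Eβf. MSTRG.25733 again had a high control 3, with 76.0, 52.1 and 1132 in the controls and 2.82, 1.09 and 1.85 after Eβf.

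MSTRG.20520 was at 67.3, 27.9 and 33.8 in the controls and at 1.13, 0.253 and 0.492 after Eβf. evm_003745 was at 38.4, 36.3 and 28.9 in the controls and at 0.587, 1.27 and 0.446 after Eβf. In both, no control was more than 3 times another. evm_009732 was at 141.1, 33.5 and 2523 in the controls and at 2.08, 0.342 and 1.42 after Eβf. MSTRG.12447 was at 35.3, 35.6 and 19.5 in the controls and at 0.452, 0.861 and 0.734 after Eβf. evm_003664 was at 257.9, 246.5 and 979.2 in the controls and at 23.2, 1.44 and 4.77 after Eβf, where replicate 1 lay above the other Eβf libraries.

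**Figure D1:**
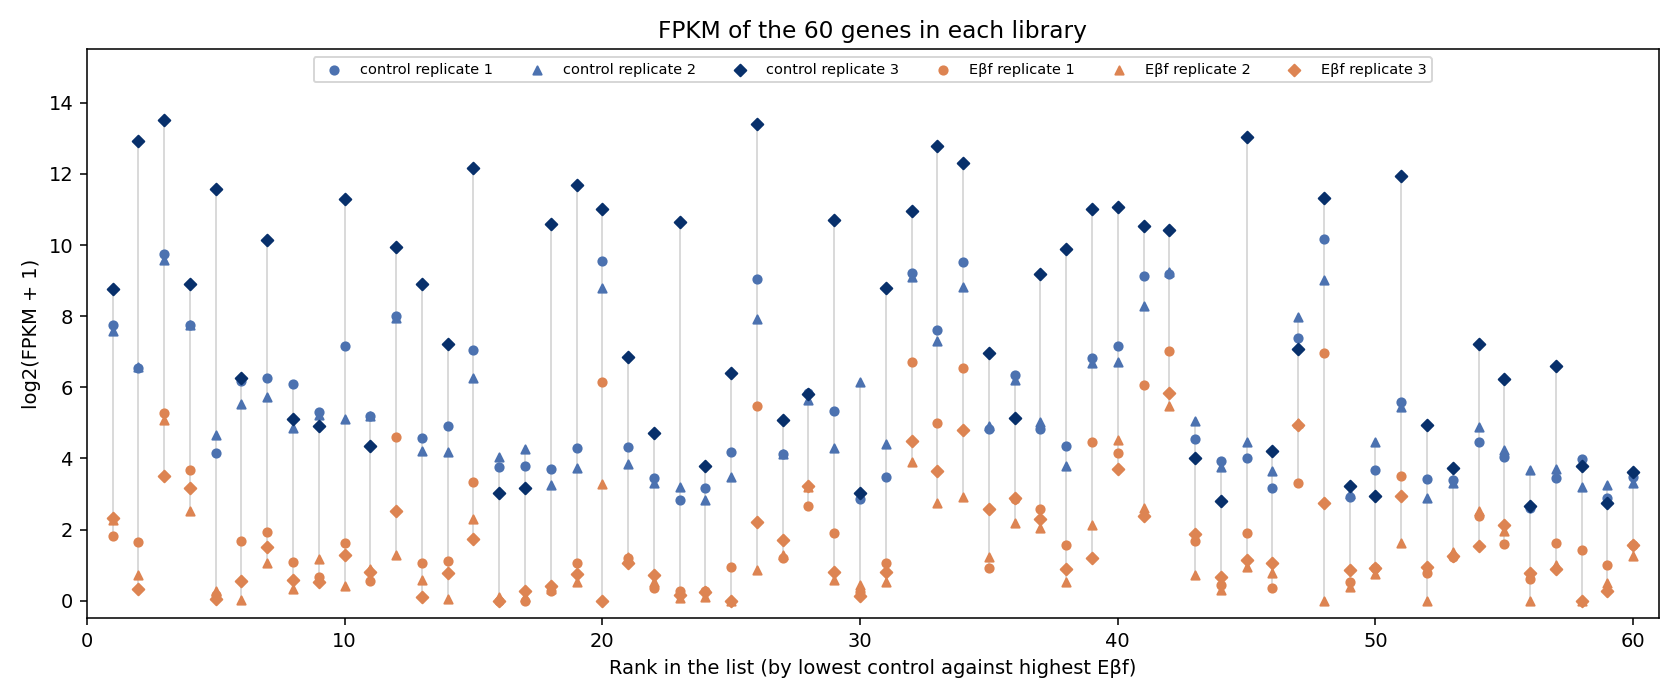
FPKM of each of the 60 genes in the 6 libraries, as log2(FPKM + 1) on the y axis and by rank of the score on the x axis. Points are single libraries (blue, controls, with replicate 3 in dark diamonds; orange, Eβf), and the grey lines join the lowest and highest library of a gene. All blue points of a gene lie above its orange points, as the rule requires. Control replicate 3 was the highest library for 45 of the 60 genes. Among all genes that met the floors of the rule, it was the highest control in 22.0%. The rule bears on this count, since a control replicate 3 that is the lowest control sets the score. The difference was not tested.

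Over the list, the mean control FPKM ran from 6.83 to 4468 with a median of 111.3, and the mean Eβf FPKM ran from 0.0262 to 76.3 with a median of 1.32. The ratio of the group means ran from 5.76 to 8347 with a median of 48.6. The highest ratios were those of evm_000761, evm_000762 and evm_000764, in all of which control 3 was far above the other controls. The ratio of the lowest control to the highest Eβf library ran from 4.13 to 91.1, with a median of 7.37. It was 8 or more in 27 members and 16 or more in 17. For comparison, 3.86% of the 3779 genes had a lowest control at 2 times the highest Eβf library or more. Since the score chose these members, nothing is read from that difference.

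After Eβf, 16 members lay below an FPKM of 1 in all 3 libraries, and 8 were listed at 0 in at least 1. Only 4 members kept an FPKM of 10 or more in all 3 Eβf libraries. One of them, evm_009740, was at 587.0, 598.8 and 1376 in the controls and at 130.0, 43.0 and 55.8 after Eβf, and it was the highest member in each Eβf library.

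In limma, fitted to all 11932 genes on log2(FPKM + 1), 63 genes (0.528%) were lower after Eβf at a Benjamini-Hochberg adjusted p under 0.05, and 32 of the 60 members were among them. The contrast is the one that chose the members, so nothing is read from this count. The median log2 fold change of the members was -4.36, ranging from -7.78 for evm_000764 to -2.01 for evm_007292, where the median of all genes tested was 0.16. Without control replicate 3 the members' median was -3.38, that of all genes -0.03, and 47 members passed among 139 lower genes (1.16% of those tested). Without control replicate 1 or 2, 4 and 0 members passed, among 10 and 1 lower genes of all tested. Without Eβf replicates 1 to 3, 15, 0 and 1 members passed, among 37, 2 and 5 lower genes. All 60 members had an unadjusted limma p under 0.05 without control replicate 2, where 582 of all 11932 genes were lower at that p. Without Eβf replicate 2, 58 members did, and 501 of all genes were lower. The same contrast chose the members, so nothing is read from these counts either.

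The other 31 genes that limma called lower were not members for reasons fixed by the rule. At least 1 control was below the floor in 15, all Eβf libraries were at 0 in 9, the values were those of another gene in 4, and the score was too low in 3. Of those at 0 in all Eβf libraries, 6 met the floor in every control.

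The last genes inside the list were MSTRG.16651, MSTRG.15892 and evm_007292, with scores of 1.76, 1.75 and 1.75. MSTRG.16651 was at 14.7, 8.08 and 12.9 in the controls and at 1.68, 0 and 0 after Eβf. MSTRG.15892 was at 6.33, 8.50 and 5.67 against 0.987, 0.423 and 0.211. Both were low-level genes. evm_007292 was at 10.2, 8.90 and 11.3 in the controls and at 1.95, 1.38 and 1.95 after Eβf. The first genes outside were evm_008330, evm_006154 and MSTRG.12016, with scores of 1.71, 1.68 and 1.68. evm_008330 was at 5.43, 8.34 and 11.2 in the controls and at 0.670, 0.486 and 0.968 after Eβf. evm_006154 was at 9.10, 8.32 and 331.5 against 1.64, 0.884 and 1.92, and MSTRG.12016 at 246.4, 83.1 and 81.0 against 10.1, 24.6 and 0. The border thus separates genes with almost the same gap.

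The members differed most among themselves in control replicate 3. The rule reads only the lowest control, so how far control 3 rises above the others was not itself scored, although it had to stay above the floor and above Eβf. A control 3 that is the lowest control does set the score. It was the lowest control in 65.1% of the 3779 genes and in 10 of the 60 members. The rule therefore bears on the ratios below, and their difference from the 3779 genes was not tested. The ratio of control replicate 3 to the mean of control replicates 1 and 2 ran from 0.187 to 468 over the members, with a median of 3.59. Over the 3779 genes its median was 0.672. It was 10 or more in 20 of the 60 members (33.3%), against 62 of the 3779 genes (1.64%). It was between 2 and 10 in 19 members, between 0.5 and 2 in 17 and at 0.5 or less in 4. Of the 3779 genes, 2269 lay between 0.5 and 2. Of those 62 genes with a ratio of 10 or more, 38 (61.3%) had groups that did not overlap, with control above Eβf.

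The 3 highest ratios were 468 in evm_000760, 224 in evm_000761 and 211 in evm_013547. evm_000760 was at 15.2, 21.0 and 8476 in the controls, against 2.71, 0.945 and 1.22 after Eβf. evm_013547 was at 18.8, 12.3 and 3286 in the controls and at 1.07, 0.443 and 0.695 after Eβf. In such genes controls 1 and 2 lay much nearer to the Eβf libraries than to control 3. Other members with high mean control FPKM had a high control 3 as well. MSTRG.20524 was at 532.4, 238.9 and 10845 in the controls and at 43.2, 0.799 and 3.67 after Eβf. Its level in control replicate 3 is uncertain, as described below with MSTRG.20525. evm_010690 was at 193.5, 155.7 and 7055 in the controls and at 30.7, 5.69 and 11.6 after Eβf. evm_010352, with a ratio of 8.58, was at 734.9, 450.9 and 5087 in the controls and at 92.7, 6.48 and 27.0 after Eβf.

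At the other end, evm_003190 had a ratio of 0.413, with 11.7, 20.8 and 6.72 in the controls and 0.906, 0.679 and 0.886 after Eβf. evm_003007 had a ratio of 0.443, with 14.1, 12.6 and 5.92 against 0.364, 0.220 and 0.582. The lowest ratio, 0.187 in MSTRG.31599, came from control replicate 2, since the gene was at 6.18, 70.1 and 7.12 in the controls and at 0.182, 0.357 and 0.0950 after Eβf.

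**Figure D2:**
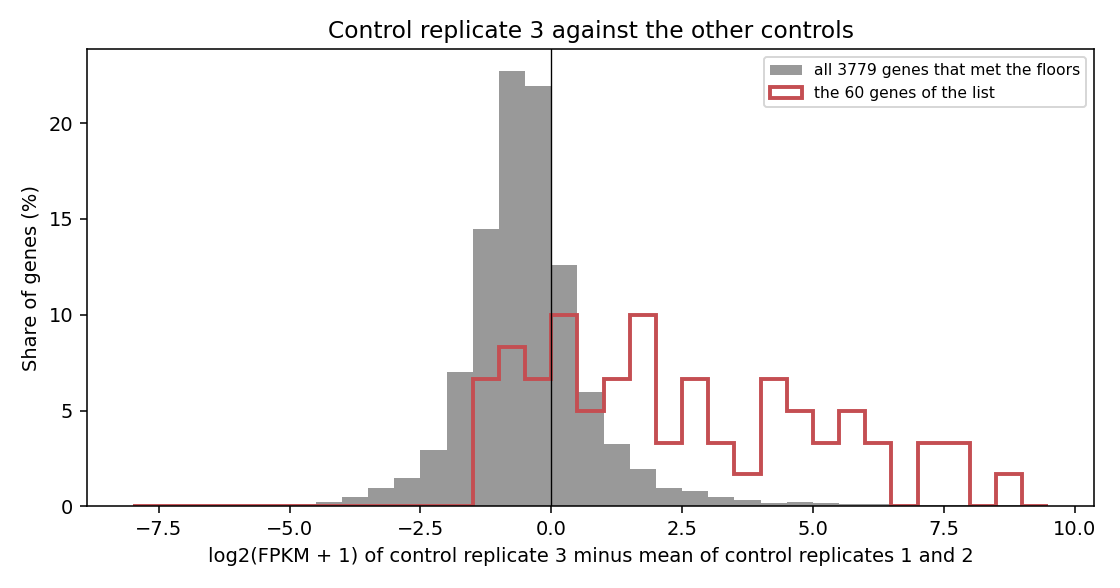
Difference between control replicate 3 and the mean of control replicates 1 and 2 in log2(FPKM + 1), as the share of genes per bin of 0.5. Grey is for all 3779 genes that met the floors and red for the 60 genes of the list, which reach 8.81 at the right while the bulk of all genes lies just below 0.

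The ratio of control 2 to control 1 was within 2 times in 52 of the 60 genes, with a median of 0.904 and a range from 0.237 to 11.3. Their median absolute difference in log2(FPKM + 1) was 0.42 in the members and 0.29 in the 3779 genes. The rule uses the lowest control and so bears on this difference, which was not tested. Between libraries, the members' log2(FPKM + 1) correlated at 0.942 for controls 1 and 2, at 0.653 and 0.580 for control 3 with those, and at 0.900 and 0.882 for Eβf replicate 1 with them. These are correlations across the 60 genes and describe the order of levels, not their size. Eβf replicate 1 was the highest Eβf library in 35 members, Eβf replicate 2 in 10 and Eβf replicate 3 in 15. Among the 3779 genes Eβf replicate 1 was the highest Eβf library in 13.2% and Eβf replicate 3 in 60.5%. The rule uses the highest Eβf library and so bears on these counts. In evm_006664 the excess was large, with 124.4 in Eβf replicate 1 against 0 and 5.72 in replicates 2 and 3 and 1142, 522.1 and 2543 in the controls. MSTRG.20513 was alike, with 70.0, 8.64 and 0 after Eβf and 745.3, 446.5 and 2070 in the controls.

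The steadiest members had near-equal controls. evm_004581 was at 56.2, 49.0 and 54.8 in the controls and at 5.36, 8.13 and 8.41 after Eβf, with an SD over the controls of 0.104 on the log2 scale. MSTRG.6402 was at 6.47, 6.93 and 8.38 in the controls and at 0.434, 0.310 and 0.830 after Eβf, with an SD of 0.171. The corresponding SD was 0.160 in evm_007292 and 0.212 in evm_003745, both given above. The median SD was 1.14 over the members and 0.515 over the 3779 genes in the controls, and 0.423 and 0.564 after Eβf.

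In sum of FPKM, the 60 genes took 0.509%, 0.386% and 5.29% of control replicates 1 to 3 and 0.0510%, 0.0133% and 0.0157% of Eβf replicates 1 to 3. The 20 genes with a ratio of 10 or more took 0.153% and 0.113% of control replicates 1 and 2, 4.28% of control replicate 3 and at most 0.0113% of an Eβf library. They include MSTRG.20524, whose 10845 FPKM in control replicate 3 is uncertain. The remaining 40 genes took 0.357%, 0.273% and 1.01% of the controls and 0.0397%, 0.00870% and 0.0121% of the Eβf libraries. The lowest control thus exceeded the highest Eβf library in both sets, and the choice of members fixes that order.

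**Figure D3:**
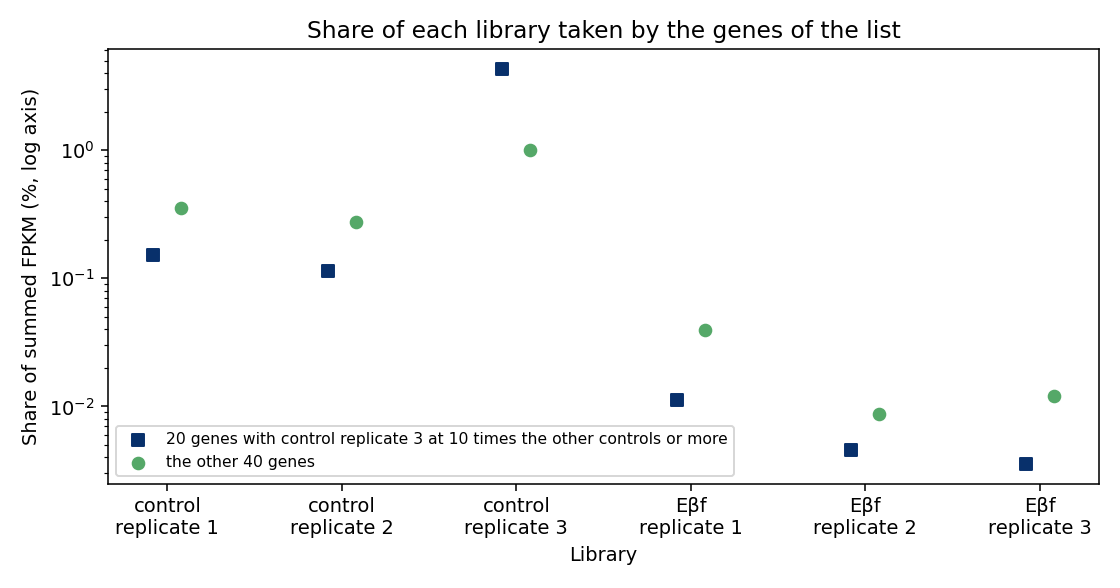
Share of the summed FPKM of each library, in percent on a log axis, taken by the 20 genes with control replicate 3 at 10 times the other controls or more (squares) and by the other 40 genes of the list (circles). The squares rise from 0.113% in control replicate 2 to 4.28% in control replicate 3 and lie at or below 0.0113% after Eβf.

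Many members carried neighbouring ID numbers. Such numbers often follow the order of genes along a genome, but the table gives no coordinates and this was not checked. In 19 of the 60 genes another member lay within 2 ID numbers, against 10 of the 60 genes with the clearest rise, a difference that was not tested. When steps of up to 10 numbers were allowed, 25 members fell into 7 stretches. The largest ran from MSTRG.20512 to MSTRG.20530 and held 8 members. The rule fixed the order of the groups in members, so only the other genes are counted here. Of its 4 other genes with enough signal to be tested, 2 (MSTRG.20525 and MSTRG.20528) had every control above every Eβf library and 0 the reverse, where 8.53% of all 11932 genes had the first order. The values of MSTRG.20525 were proportional to those of a member in 5 libraries.

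Within this stretch MSTRG.20517 was at 29.1, 17.2 and 148.5 in the controls and at 1.15, 0.0312 and 0.700 after Eβf. MSTRG.20519 was at 17.1, 10.1 and 82.8 in the controls and at 0.917, 0 and 0 after Eβf. MSTRG.20512 was at 11.9, 8.61 and 1541 against 0.218, 0.253 and 0.342, and MSTRG.20529 was at 10.1, 20.2 and 440.4 against 1.10, 0.449 and 0.752. The stretch also held genes outside the list with another pattern. MSTRG.20514 was listed at 0, 29.6 and 110.7 in the controls and at 78.7, 9.72 and 17.7 after Eβf. The member numbered just before it, MSTRG.20513, was at 745.3, 446.5 and 2070 in the controls and at 70.0, 8.64 and 0 after Eβf. Whether these loci share reads was not tested. MSTRG.20527 was listed at 0, 0 and 16040 in the controls and at 22.0, 4.04 and 2.51 after Eβf.

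The stretch from evm_000760 to evm_000764 held 4 members among 5 genes, and the fifth, evm_000763, had the same values as evm_000764 in all 6 libraries and was left out for that. All had a ratio of control 3 to the other controls of 82.4 or more. evm_000761 was at 6.18, 8.12 and 1602 in the controls and at 0.216, 0.0568 and 0.126 after Eβf. From evm_006664 to evm_006670, 3 of 7 genes were members. The 2 other genes tested, evm_006665 and evm_006666, also had every control above every Eβf library. evm_006670 was at 23.0, 17.5 and 475.6 against 1.10, 0.510 and 0.0687. Between them, evm_006668 was nearly silent in control replicates 1 and 2 (0.659 and 0.876) and in Eβf (0.0799 to 0.0830) but reached 306.6 in control replicate 3.

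From evm_010683 to evm_010690, 2 of 8 genes were members. The 4 other genes tested all had a ratio of 10 or more, and 3 of them had every control above every Eβf library. evm_010683 was at 47.0, 42.4 and 3931 in the controls and at 10.3, 2.10 and 6.67 after Eβf. evm_010686, outside the list, was at 1.62, 0.871 and 1998 in the controls and at 0.212, 0.508 and 0.129 after Eβf. In evm_010686 the first 2 controls lay within a few FPKM of the Eβf libraries, while in evm_010683 all controls lay clear of them.

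Not every stretch had one order of the groups throughout. From evm_009732 to evm_009746, 4 of 15 genes were members, and 4 of the 9 other genes tested had every control above every Eβf library. evm_009746 was at 27.6, 29.1 and 124.7 in the controls and at 0.878, 1.34 and 4.95 after Eβf. Yet evm_009735 was at 648.0, 868.6 and 12.3 in the controls and at 4018, 4767 and 5363 after Eβf, so its Eβf libraries were the higher ones, with control replicate 3 lowest of all. Its log2 fold change was 4.58. evm_009734 was at 765.0, 751.1 and 2.07 in the controls and at 1676, 317.8 and 639.8 after Eβf, so its groups overlapped. Control replicate 3 was thus the highest library in all 4 members of this stretch and the lowest in these 2 genes beside them. The last stretches were pairs. evm_009019 was at 112.8, 102.1 and 2065 against 21.2, 3.33 and 1.30, and its neighbour evm_009020 was at 556.7, 308.2 and 1487 against 66.4, 5.07 and 4.23. evm_004580 was at 7.96, 11.5 and 17.3 against 0.272, 0.727 and 1.07, beside evm_004581.

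**Figure D4:**
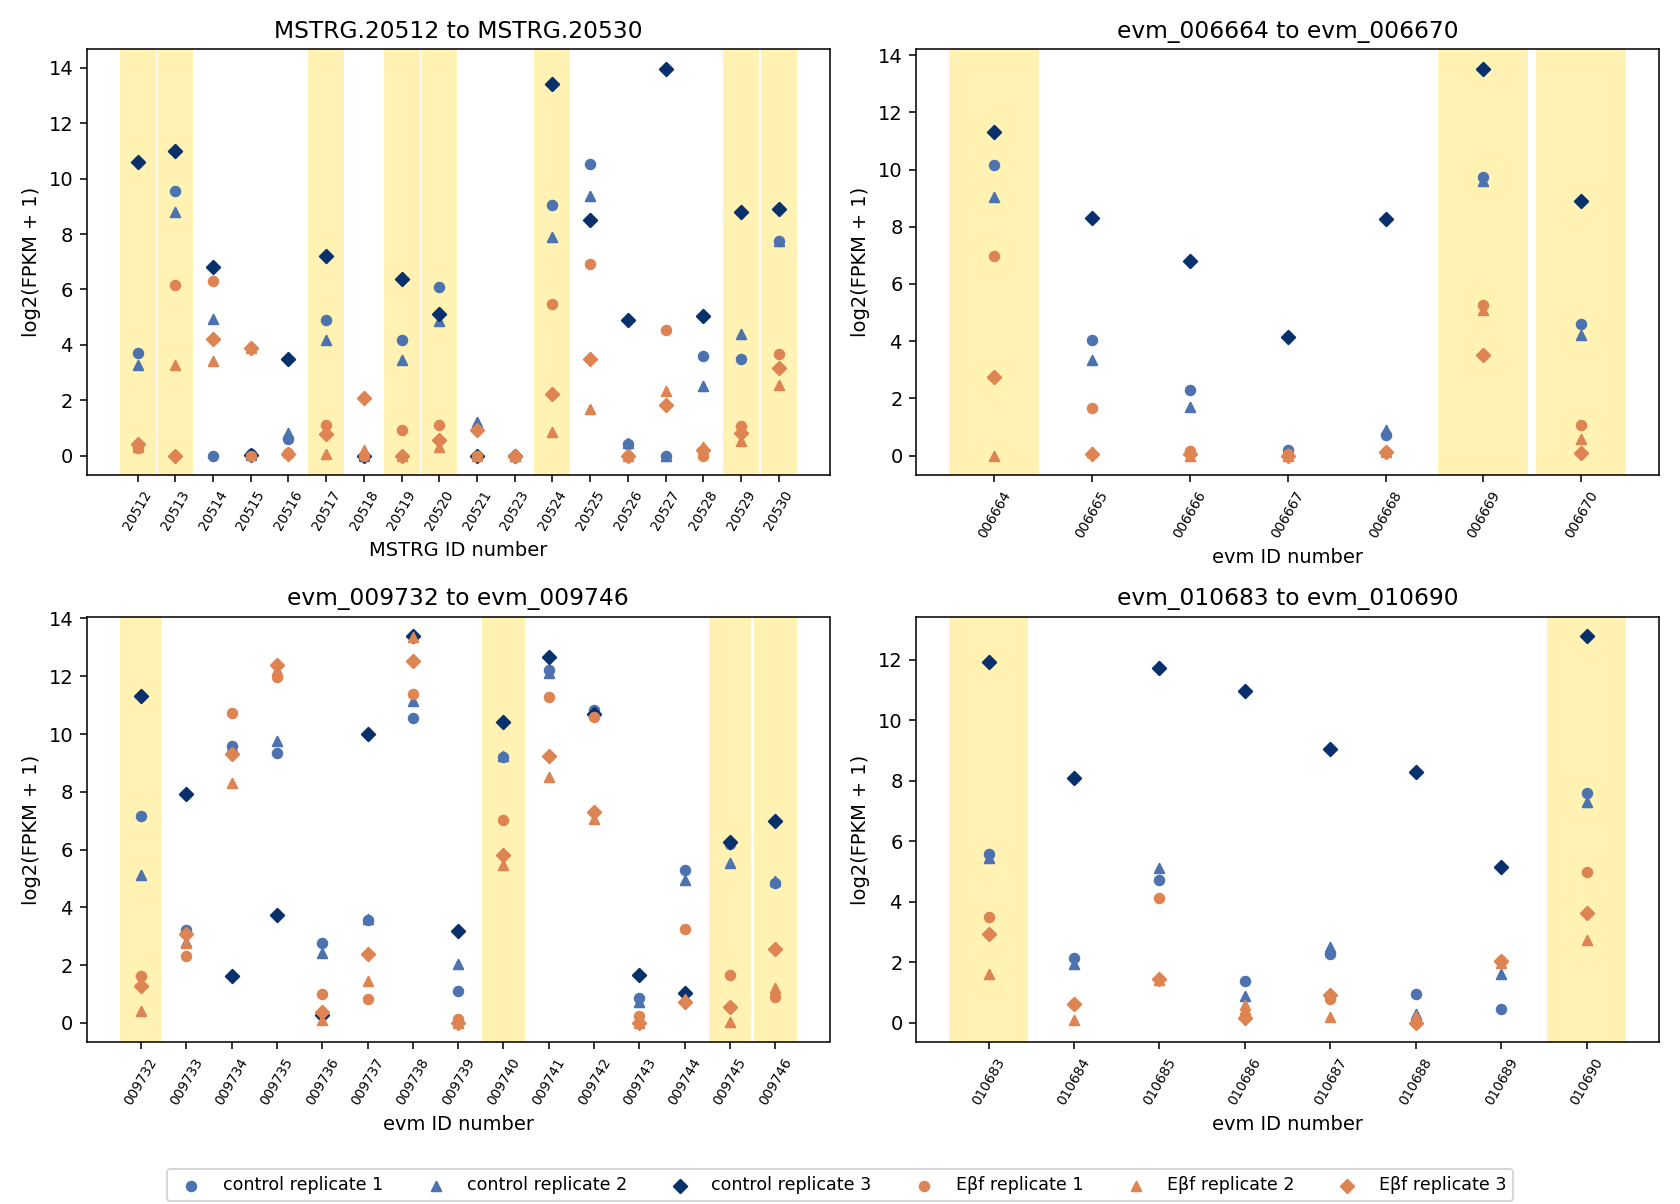
log2(FPKM + 1) of every gene in 4 stretches of ID numbers, by library (blue, controls, with replicate 3 in dark diamonds; orange, Eβf), with the genes of the list shaded. Control replicate 3 lies far above the other libraries for most genes of evm_010683 to evm_010690, while evm_009735 shows the opposite order, with Eβf at 4018 to 5363 and control replicate 3 at 12.3.

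The genes beside the members were not part of the list, although they share its libraries. Within 2 ID numbers of a member lay 177 other genes, of which 78 had distinct values and enough signal to be tested. Their median log2 fold change was -0.66, where that of all genes tested was 0.16. A log2 fold change of -1 or lower was found in 36 of the 78 (46.2%), against 9.93% of all genes, and 23 (29.5%) had every control above every Eβf library, against 8.53%. limma called 1 of them lower and 1 higher. Control replicate 3 was at 10 times the other controls or more in 16 of the 78 (20.5%), against 2.72% of all genes. Without control replicate 3, 32 of the 78 had non-overlapping groups with control above Eβf, against 18.7% of all genes, and their median log2 fold change was -0.76 against -0.03. Whether neighbouring IDs share reads or sequence was not tested.

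Some values near the members were tied to each other. MSTRG.18891 stood at 0.0630 times MSTRG.18892, a member, in all 6 libraries, within 1%. MSTRG.20511 stood at 0.213 times MSTRG.20512 in 5 libraries. MSTRG.20525 stood at 2.80 times MSTRG.20524 in 5 libraries, with 1488, 667.8, 120.7, 2.23 and 10.3, but at 0.0338 times in control replicate 3, with 366.2. The quotient is fixed in such pairs, so they hold 1 measurement and not 2 in those libraries, and the level of MSTRG.20524 is uncertain. The 3 partners were left out of the neighbour counts above. No 2 members were tied in this way.

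A library that took no part in the choice has values that the score did not set. The list was therefore drawn again from 5 libraries at a time, and the 60 genes were read in the one left out. The libraries of the other group, against which it is read, did take part in the choice. The counts and medians below thus follow in part from the choice. The study describes its replicates as biological, and the number of larvae in each library is not settled. Chosen without control replicate 1, 60 of 60 genes lay above every Eβf library in it, and their median log2 difference from the Eβf mean was 3.49. Chosen without control replicate 2, 58 did, with a median of 3.42. Chosen without control replicate 3, 55 of 60 did (91.7%), with a median of 2.88. Of all genes that met the floors in the other 5 libraries, 28.1%, 29.4% and 13.6% lay above every Eβf library in control replicates 1 to 3.

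Chosen without Eβf replicates 1, 2 or 3, 58, 60 and 57 of 60 genes lay below every control in the library left out, against 36.3%, 26.5% and 16.6% of all genes that met the floors. Their median log2 differences from the control mean were -3.65, -4.33 and -3.91. Genes whose groups already did not overlap in the other 5 libraries are the closer comparison. Of these, 87.1%, 87.5% and 38.8% fell on the control side in control replicates 1 to 3, and 85.9%, 89.6% and 51.2% on the Eβf side in Eβf replicates 1 to 3. The 60 genes were those with the widest gaps in the other 5 libraries, so a higher share than in these genes follows in part from the choice. One library at a time allows no test.

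**Figure D5:**
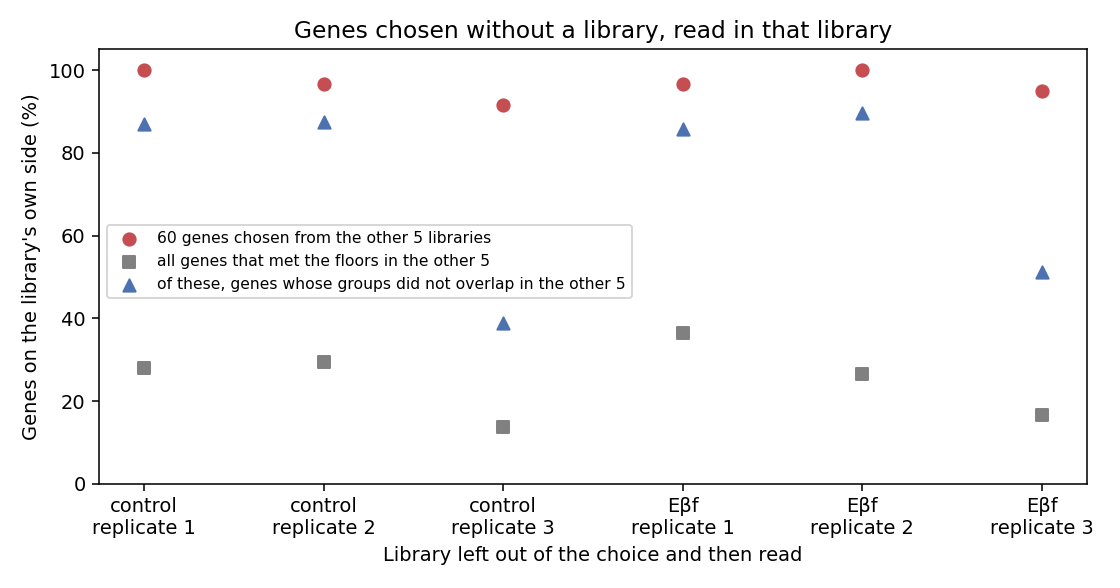
Share of genes, in percent, that fell on their library's own side (above every Eβf library for a control, below every control for an Eβf library) when that library had no part in the choice. Circles are the 60 genes chosen from the other 5 libraries, triangles all genes whose groups did not overlap in those 5 and squares all genes that met the floors. The circles lie between 91.7% and 100%, and the triangles drop to 38.8% in control replicate 3 and 51.2% in Eβf replicate 3.

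The list chosen without control replicate 3 shared 34 genes with the full one, and 12 of these 34 had a ratio of 10 or more. Of the 26 genes that entered, 17 were below an FPKM of 5 in control replicate 3, where the median of the 26 was 3.44 against 24.1 for the mean of control replicates 1 and 2 and 1.38 for the Eβf mean. Of the 26 genes that left, 8 had a ratio of 10 or more. Control replicate 3 therefore held members far above the other controls, while its values below the floor kept 17 genes off the list. The other entering genes were not all low in it. Among the 60 genes chosen without it, the highest value in it was 40736 FPKM. A gene at that level is among the 100 most abundant over all 6 libraries, whose lowest mean was 2490 FPKM. The full rule left those genes out, so no comparison with its members is made.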

How the data were processed

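HISAT2 alignment and StringTie assembly by the authors preceded the deposited FPKM table, which has 1 row per gene. Both names are in the submitters' processing notes, and the study names the *C. suppressalis* reference genome at NCBI. Tool versions and the genome build are not stated in the sources used. A row of alternative library codes under the header was skipped. Without counts, limma 3.58.1 (R 4.3.3) was applied to log2(FPKM + 1) of the 11932 genes reaching FPKM 1 in 3 libraries or more. Treatment was the only term, the prior variance followed the mean level, and two-sided p-values were adjusted (Benjamini-Hochberg) over all genes tested. The pseudocount of 1 understates changes of low genes. The fit was also run on simulated data with independent normal noise and no library that stands apart as control replicate 3 does. Nothing about the calls given here is read from that. Score, ratios and counts were computed with Python 3.11.15, numpy 2.4.6 and pandas 2.3.3. Proportional pairs had the same quotient within 1% in at least 5 libraries.

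The members and lists were chosen with earlier results of these data known. The text names the 12 highest scores, the 6 highest control means, the 3 genes on each side of the border, members within 2 ID numbers of another, the 3 highest and 3 lowest ratios of control replicate 3 to the other controls, and the 4 steadiest in the control. Genes outside the list, other members and the ratio classes were chosen after their values were seen. Marker lists of tissues were not applied, because the IDs carry no names. Alternatives are other pseudocounts, floors, filters and scalings, and each library left out. The reading of ID neighbours without control replicate 3 was added after the data were seen.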

Additional observations from a re-analysis of the deposited data

How the results depend on the processing

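The list of 60 genes shared 59 with that from a pseudocount of 0.1, 57 and 42 with floors of 1 and 10, 42 with median-of-ratios scaling, 49 with quantile normalization, 59 with the most abundant genes kept and 54 with genes at 0 after Eβf kept. It shared 36 with a pseudocount of 10 and 37 when the difference of group means was the score. Leaving out 1 library at a time kept 34 (without control replicate 3) to 58 (without Eβf replicate 2). The lower genes of limma, 63 in all with 32 members, were 35 with 19 members at a pseudocount of 0.1, 3 with 1 member without the filter and 35 with 21 members at a mean FPKM of 5 or more. They were 126 with 23 members with median-of-ratios scaling and 151 with 30 members with quantile normalization. That normalization took the all-gene median difference (log2) from 0.16 to 0.01. Without 1 library they ranged from 1 to 139, with 0 to 47 members. The members' median log2 fold change of -4.36 was -5.51 with a pseudocount of 0.1 and between -4.96 and -3.38 without 1 library. In the other alternatives it lay between -4.71 and -4.34. The cause of these changes was not tested, apart from the fewer samples or additional genes that some alternatives bring by construction.

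With the replicate number as a block, limma called 0 genes lower (618 at an unadjusted p under 0.05) and 0 members (60 at an unadjusted p under 0.05), whose median stayed at -4.36. The labels tie libraries of the 2 groups by number alone. Both libraries numbered 3 had the lower base quality and alignment rate in the sequencing summary of the study. Their GC content lay at opposite ends, highest in control replicate 3 and lowest in Eβf replicate 3. A shared batch was thus not settled. Deviations from the group means correlated at 0.15, -0.33 and -0.16 for the pairs numbered 1 to 3. Pairs of unlike number ran from -0.13 (control replicate 3 with Eβf replicate 1) to 0.32 (control replicate 3 with Eβf replicate 2). Not every library was therefore nearest to its own number.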
